A study of Rattus norvegicus with 8 samples.

Results

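miR-205, miR-203 and miR-31 are microRNAs of basal and squamous epithelium, and they were examined here in the rat prostatic urethra after laser surgery. Members were chosen by name as every miRNA of the array beginning rno-miR-205, rno-miR-203a, rno-miR-203b or rno-miR-31a, which gave 7 of 758 rat miRNAs. The 7 were rno-miR-205, rno-miR-203a-3p, rno-miR-203a-5p, rno-miR-203b-3p, rno-miR-203b-5p, rno-miR-31a-5p and rno-miR-31a-3p, written below without the species prefix. The tissue came from male Sprague Dawley (SD) rats, 10 to 12 months old and with no genetic change named, and was taken on day 5. TULP animals had a thulium laser applied to the prostatic urethra, which simulates transurethral laser prostatectomy, and sham animals had surgery without the laser. Each group held 4 arrays, which per the labels are biological replicates. Titles and treatment fields of the TULP samples name trauma, whereas the description field of the same samples speaks of sham surgery, and each direction below rests on the titles.

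A microRNA is a short RNA that pairs with messenger RNAs mainly through its seed, bases 2 to 8 from its 5′ end, and lowers their output. miR-205 is abundant in the basal layer of stratified epithelia and of the prostate, where it is known for restraining the ZEB factors that shut down epithelial genes, a role it shares with the miR-200 family. miR-203 is known from the skin for ending the proliferation of basal progenitors through p63 as keratinocytes begin to differentiate. miR-31 is a keratinocyte miRNA known to rise in wounded and inflamed epidermis, where it promotes keratinocyte proliferation and migration.

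The mature sequences of all 7 members were found in RefSeq. They are shown because the seed sets which messages a miRNA can reach and because the probes read the later bases up to the end. For every member but miR-205 the stretch read by the probes takes in part of the seed. Capitals mark the seed.
miR-205: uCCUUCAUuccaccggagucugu
miR-203a-3p: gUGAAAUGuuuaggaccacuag
miR-203a-5p: aGUGGUUCuuaacaguucaac
miR-203b-3p: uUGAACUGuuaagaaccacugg
miR-203b-5p: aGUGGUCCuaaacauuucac
miR-31a-5p: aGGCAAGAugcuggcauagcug
miR-31a-3p: uGCUAUGCcaacauauugccauc
No other rat miRNA in the RefSeq table had the same seed as any of the 7, so the group is one of shared tissue and not of shared seed.

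On the rat assembly GRCr8 the miR-205 gene lay at chr13:107564535-107564642 on the minus strand and overlapped no other annotated gene. The miR-203a gene lay at chr6:137020705-137020801 on the plus strand, and the gene of miR-203b lay across it at chr6:137020691-137020805 on the minus strand. The miR-31a gene lay at chr5:108714849-108714954 on the minus strand, within the annotated long noncoding RNA gene LOC130062807, and the gene of miR-31b, which is no member by name, lay across it on the plus strand at chr5:108714843-108714960. The products of miR-203a and miR-203b therefore come from opposite strands and are near complements of each other. Capitals mark the longest run of perfect complement in the pair that includes miR-203a-3p, which spanned 20 bases.
miR-203a-3p: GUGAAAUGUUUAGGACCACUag
miR-203b-5p: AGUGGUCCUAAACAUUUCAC
The pair of miR-203a-5p and miR-203b-3p had a run of the same length, 20 bases, and miR-31a-5p and miR-31b had one of 19 bases. The probes of miR-203b-5p therefore carry letters found inside miR-203a-3p, and those of miR-31b letters found inside miR-31a-5p.

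Each member was read by 2 probes of 8 spots each, the shorter contained in the longer. The miR-205 probes had 14 and 15 bases and paired with bases 10 to 23 and 9 to 23 of the miRNA, so neither touched the seed.
miR-205 probe of 14 bases: acagactccggtgg
miR-205 probe of 15 bases: acagactccggtgga
The miR-31a-5p probes paired with bases 7 to 22 and 6 to 22.
miR-31a-5p probe of 16 bases: cagctatgccagcatc
miR-31a-5p probe of 17 bases: cagctatgccagcatct
No probe of the 7 members paired in full with any other rat miRNA of the table.

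A probe counted as detected on an array where its total signal exceeded 3 times its error, and a miRNA where at least 1 of its probes did. miR-205 was detected on all 8 arrays. miR-203a-3p was detected on 1 array, TULP replicate 2, and miR-31a-5p on 1 array, TULP replicate 4. The other 4 members, miR-203a-5p, miR-203b-3p, miR-203b-5p and miR-31a-3p, were detected on 0 of 8 arrays. Over the array, 136 to 156 miRNAs were detected per array, 185 on at least 1 and 122 on all 8. Of the 7 members 1, miR-205, passed the filter for the test, detection on at least 4 of the 8 arrays, which 151 miRNAs of the array passed. Of the basal and squamous markers miR-205 was thus the one measured on every array, with miR-203 and miR-31 near or below the detection limit. An array gives no count, and its number of spots limits the precision.

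**Figure D1:**
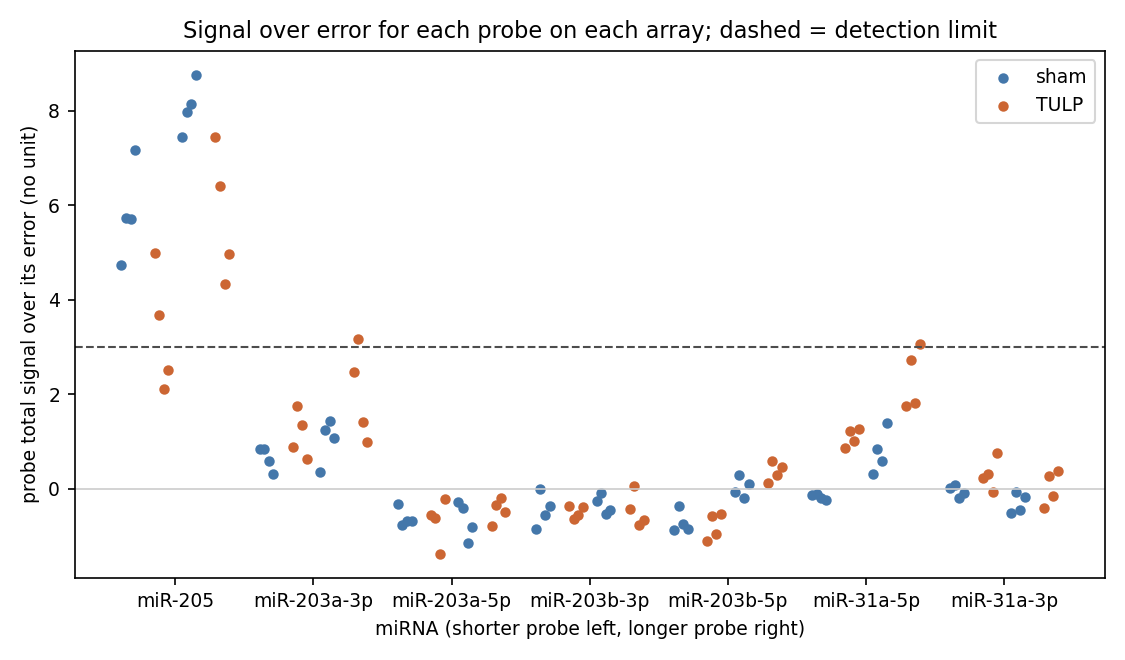
Total signal of each probe divided by its error (y axis, no unit) for the 7 members (x axis), with the shorter probe to the left, 1 point per array, sham in blue and TULP in orange, and the detection limit of 3 as a dashed line. At least 1 miR-205 probe stands above the limit on each array, and miR-203a-3p and miR-31a-5p reach it on 1 TULP array each. The other 4 members lie between -1.38 and 0.76, with miR-203a-5p below 0 throughout.

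miR-205 was lower on 3 of the 4 TULP arrays than on every sham array by the total signal before normalization, and on 2 of the 4 after it, and the group difference did not pass the test. The total signal before normalization, as the sum over detected probes, was 18.7, 26.4, 24.3 and 35.4 in sham replicates 1 to 4. It was 23.99, 16.03, 6.44 and 7.21 in TULP replicates 1 to 4. TULP replicates 2, 3 and 4 lay below all sham arrays, and TULP replicate 1 lay inside the sham range, so the groups overlapped. The summed signal of all detected miRNAs was also lower on every TULP array (16787 to 19464) than on every sham array (21074 to 37357), which bears on each total given before normalization. After quantile normalization the log2 level was 4.24, 4.48, 4.41 and 4.74 in the sham arrays and 4.82, 4.24, 2.97 and 3.12 in the TULP arrays. On this scale TULP replicate 1 had the highest level of the 8 arrays, TULP replicate 2 equalled the lowest sham array, and TULP replicates 3 and 4 lay below all sham arrays.

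The mean log2 level was 4.47 ± 0.21 (SD, n = 4) in sham and 3.79 ± 0.89 (SD, n = 4) in TULP. The difference, TULP minus sham, was -0.68 on the log2 scale, with a standard error of 0.42, a 95% interval from -1.66 to 0.29 and an adjusted p of 0.285 (limma with Benjamini-Hochberg adjustment over 151 miRNAs). It ranked 49th of the 151 by size. The call rule asked for an adjusted p under 0.05 and a change over 2-fold, and 14 of 151 miRNAs met it, 9.27% of those tested, 6 of them (3.97%) in the lower direction. At the adjusted p alone 46 of 151 passed, 30.5%, of which 25 were lower (16.6%) and 21 higher (13.9%) in TULP. miR-205 met neither rule, and its interval takes in a fall of over 2-fold as well as a small rise.

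The 2 probes of miR-205 moved together, but the shorter is contained in the longer, so they are not independent readings. The 15-base probe had totals of 12.6, 17.3, 16.2 and 22.5 in the sham arrays and 15.8, 10.9, 6.44 and 7.21 in the TULP arrays. The 14-base probe had 6.07, 9.12, 8.07 and 12.9 in the sham arrays and 8.17, 5.14, 2.88 and 3.28 in the TULP arrays. Both probes put TULP replicates 2, 3 and 4 below every sham array and TULP replicate 1 inside the sham range. The mean difference of the log2 probe total was -0.83 for the 15-base probe and -0.96 for the 14-base probe. The shorter probe gave 0.519 ± 0.039 (SD, n = 4) of the longer probe's total in sham and 0.473 ± 0.031 (SD, n = 4) in TULP.

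On TULP replicates 3 and 4 the 14-base probe fell below 3 times its error, at 2.11 and 2.52 times, and so was left out of the total there. That removed 30.9% and 31.3% of the sum of both probes on those arrays and 0% on the others. With both probes kept on every array, the totals of TULP replicates 3 and 4 were 9.32 and 10.5, and the difference was -0.51 with an adjusted p of 0.288 (limma). This version was added after the probe values were seen.

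**Figure D2:**
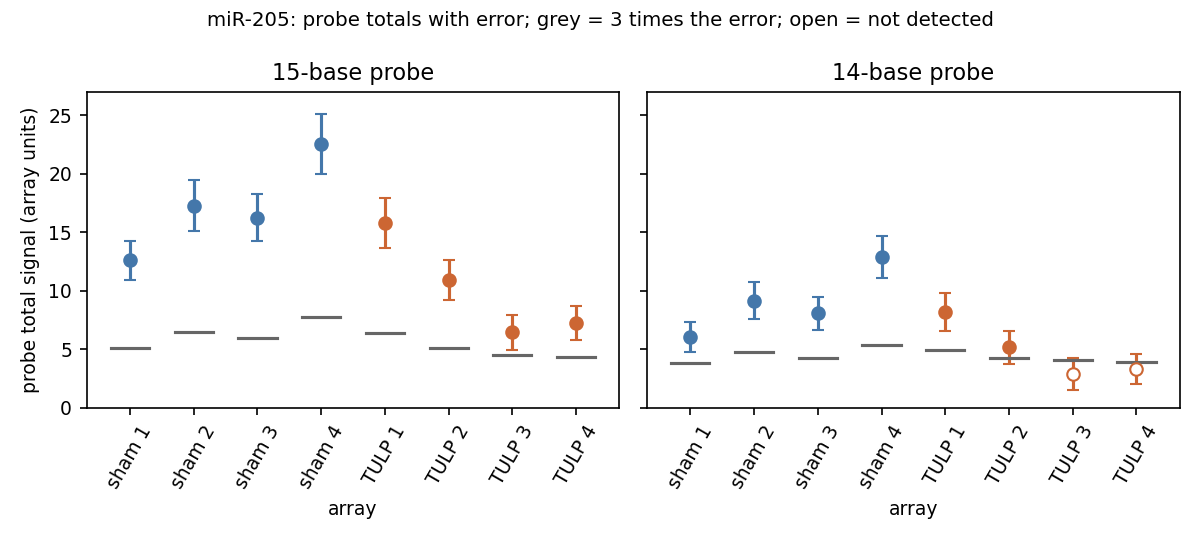
Total signal of the 15-base and 14-base probes of miR-205 on each array (y axis, array units, bars ± the probe error), with 3 times the error as a grey line and open points where the probe was not detected. TULP replicate 1 sits with the sham arrays at 15.8 and 8.17, and the 14-base probe is under the limit on TULP replicates 3 and 4.

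The miR-205 difference was negative under all 28 other settings, from -1.37 to -0.10, and passed the call rule under 2 of them. The -0.10 came from a background correction, normexp, that adds an offset of 50 and so compresses the log2 scale. Its size is therefore not comparable with the other settings. Scaling to the labelling spike-ins gave -1.37 with an adjusted p of 0.0126 (limma), but it also moved the median difference of the 151 miRNAs from -0.02 to -0.78. Without normalization that median was -0.55 and miR-205 differed by -1.14 with an adjusted p of 0.0535 (limma). Without TULP replicate 1 the difference was -1.04 with an adjusted p of 0.0456 (limma). Within the first slide row, which held sham replicate 4 and TULP replicates 1 to 3, it was -0.73, and within the second row -1.26, with the row as a block giving -0.998 and an adjusted p of 0.174 (limma).

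**Figure D3:**
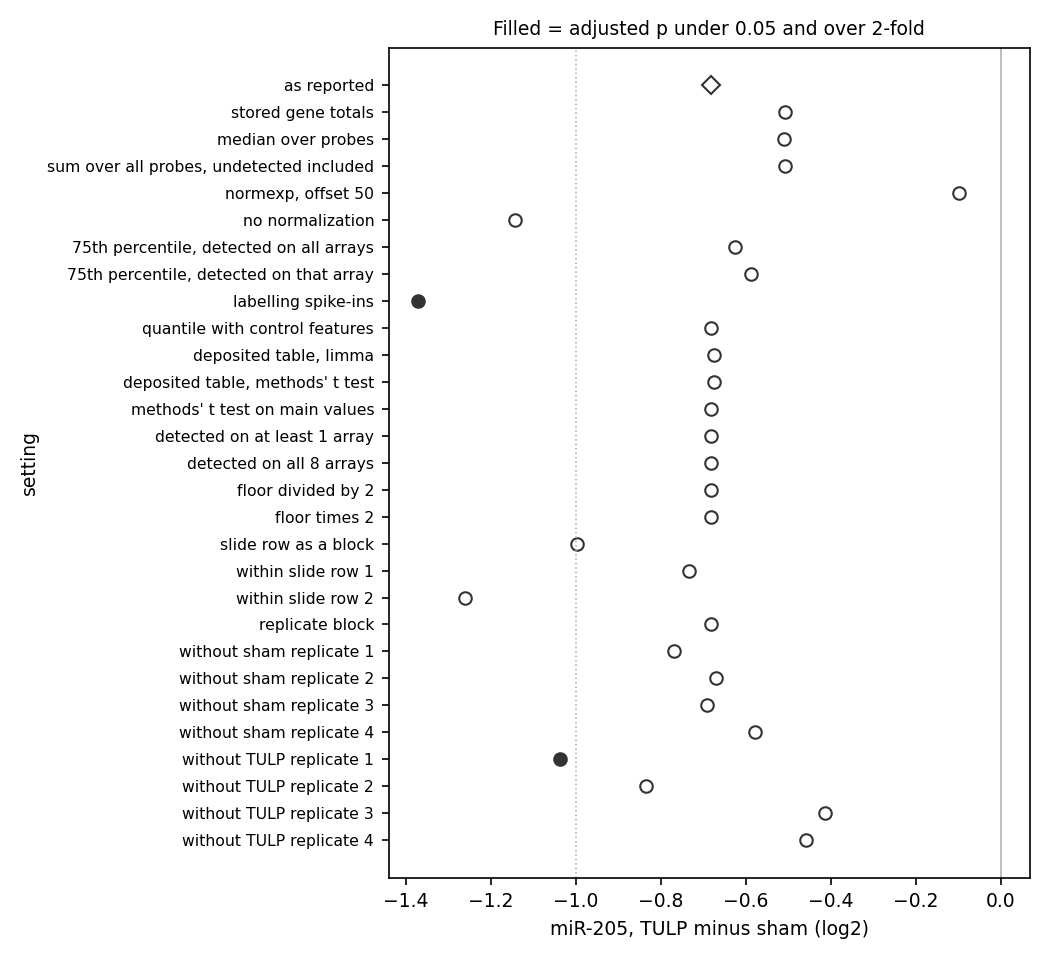
Difference of miR-205, TULP minus sham, on the log2 scale (x axis) under each processing setting (y axis), with the reported value as a diamond and filled points where the call rule was met. All points lie below 0, and the filled points are the labelling spike-ins at -1.37 and the fit without TULP replicate 1 at -1.04.

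miR-203a-3p, the main arm of the keratinocyte miR-203, was at the detection limit. Its 18-base probe had totals of 0.396, 1.63, 1.67 and 1.35 in the sham arrays and 3.62, 4.37, 1.90 and 1.24 in the TULP arrays. TULP replicates 1 and 2 were the highest of the 8, and TULP replicate 4 lay inside the sham range. Over both probes the sum was 2.04 ± 0.62 (SD, n = 4) in sham and 4.33 ± 1.96 (SD, n = 4) in TULP, with overlapping groups. Detection on TULP replicate 2 rested on 3.17 times the error of 1 probe, and the same probe stood at 2.48 times on TULP replicate 1. The passenger arm miR-203a-5p had negative totals for both probes on all arrays.

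miR-203b-3p and miR-203b-5p, from the strand opposite miR-203a, gave no detected signal. The highest total of miR-203b-3p was 0.058 times its error and that of miR-203b-5p 0.592 times. Their summed totals differed by -0.33 and 0.20 between TULP and sham, less than the SD of 0.54 and 0.45 among the sham arrays. No fold of these totals is given for a member below the limit in both groups. Log2 differences given further below for such members are from signals with an added offset.

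miR-31a-5p, the main arm of miR-31, had higher probe totals on every TULP array than on any sham array, all but 1 of them under the detection limit. Its 17-base probe gave 0.359, 1.101, 0.677 and 1.74 in sham replicates 1 to 4. It gave 2.53, 3.68, 2.48 and 4.08 in TULP replicates 1 to 4. The groups did not overlap, and the lowest TULP array was above the highest sham array. The 16-base probe was negative on all 4 sham arrays and lay between 1.22 and 1.62 on the TULP arrays. It is contained in the 17-base probe, so the 2 are not independent readings. The sum of both probes was 0.776 ± 0.55 (SD, n = 4) in sham and 4.64 ± 0.997 (SD, n = 4) in TULP.

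Among the 607 miRNAs detected on fewer than 4 arrays, the difference of 3.87 in the summed totals of miR-31a-5p was the rank 2 highest, and that of miR-203a-3p, 2.29, the rank 6 highest. A miRNA that rose enough to be detected on at least 4 arrays is left out of this set. The ranks therefore hold within the set alone and are no test. The median difference of the 607 was 0.04, with the middle 90% from -0.91 to 1.03. Of the 607, 9 had all TULP arrays above all sham arrays (1.48%) and 11 had all below (1.81%), so the shares in the 2 directions were close. miR-31a-5p was 1 of the 9, and miR-203a-3p was not.

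For a test of these dim signals, added after their values were seen, the spot signals of all 758 miRNAs were corrected with normexp, quantile normalized and fitted with limma without a detection filter. In that fit 32 of 758 miRNAs passed an adjusted p of 0.05, 4.22%, of which 16 were higher in TULP (2.11%). Among the 607 dim miRNAs 3 were higher and passed (0.494%), and miR-31a-5p was 1 of them. miR-31a-5p was 0.08 higher on the log2 scale, with a standard error of 0.0115 and an adjusted p of 0.0098. The log2 scale is strongly compressed there because the correction adds an offset of 50 to signals of a few units. Leaving out any 1 array kept the adjusted p between 0.00439 and 0.0382 (limma). The result was lost with these signals left unnormalized, where the difference was 0.27 with an adjusted p of 0.42, and with the labelling spike-ins, where it was 0.0385 with an adjusted p of 0.9995 (both limma). With the log2 of the summed probe totals plus 10 in place of the corrected signals, the difference was 0.44 with an adjusted p of 0.00766 without normalization and 0.43 with an adjusted p of 0.0053 after quantile normalization (both limma). In the same fit miR-203a-3p was 0.04 higher with an adjusted p of 0.245, miR-203b-3p differed by -0.01 with an adjusted p of 0.696, and miR-31a-3p by 0.02 with an adjusted p of 0.459 (limma). miR-31b, which lies across from miR-31a, was detected on 0 arrays and differed by -0.01 with an adjusted p of 0.652 (limma).

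**Figure D4:**
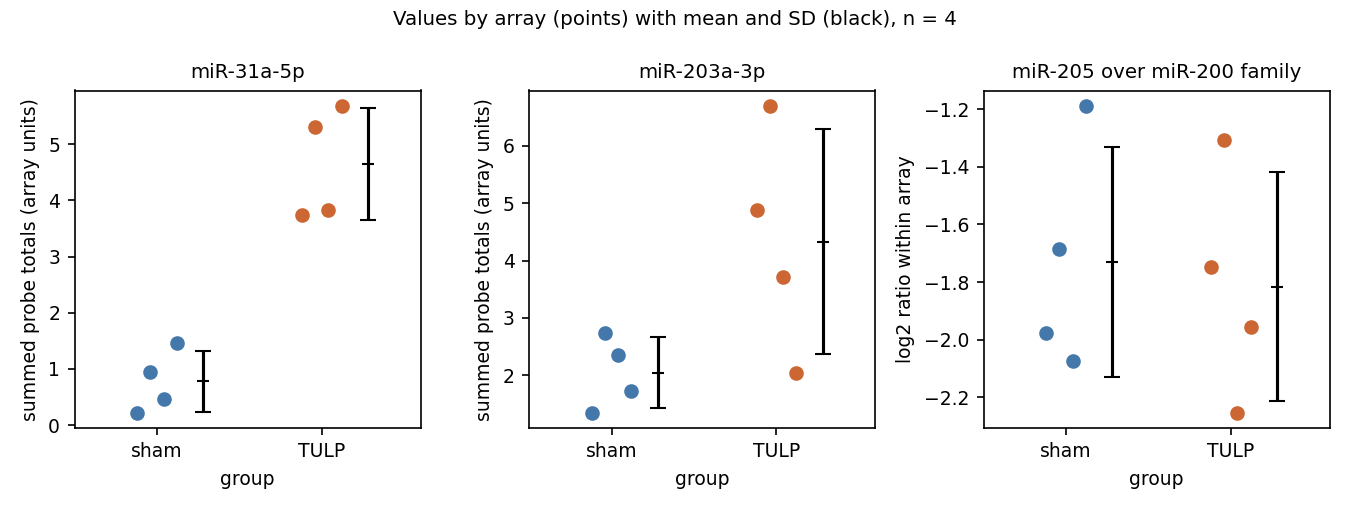
Summed probe totals of miR-31a-5p and miR-203a-3p (array units) and the log2 ratio of miR-205 to the miR-200 family, by array, with the group mean and SD in black (n = 4). The miR-31a-5p values do not overlap, at 0.224 to 1.46 in sham and 3.75 to 5.68 in TULP, while the other 2 panels overlap.

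The miR-200 family, expressed by epithelium in general, was set beside miR-205 to ask whether the basal miRNA changed apart from epithelial miRNAs as a whole. All 5 members used, miR-200a-3p, miR-200b-3p, miR-200c-3p, miR-141-3p and miR-429, were detected on all 8 arrays, and 0 of 5 passed the adjusted p of 0.05 (limma). At an unadjusted p under 0.05, 2 of the 5 passed, miR-200c-3p and miR-200a-3p. At least 30.5% of all 151 tested passed that rule, as this share passed the stricter adjusted p, so the count does not set the family apart. The median difference of the 5 was -0.57, beside -0.02 for all 151 tested. miR-200c-3p differed by -1.46, with an interval from -2.72 to -0.20 and an adjusted p of 0.0753, and miR-200a-3p by -0.71 with an adjusted p of 0.0874 (limma). miR-141-3p differed by -0.57, miR-200b-3p by 0.00 and miR-429 by 0.01.

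The log2 ratio of miR-205 to the mean of these 5 within each array, taken before normalization, was -1.98, -1.68, -2.07 and -1.19 in sham and -1.75, -1.31, -2.25 and -1.96 in TULP. The groups overlapped almost entirely. The mean was -1.73 ± 0.40 (SD, n = 4) in sham and -1.82 ± 0.40 (SD, n = 4) in TULP, a difference of -0.09 with a two-sided exact permutation p of 0.743 over 70 labellings, of which the smallest possible is 0.0286. With the totals stored in the files the difference was -0.50 with an exact permutation p of 0.0857. Against all miRNAs detected on 8 arrays, in place of the family, it was -0.61 with an exact permutation p of 0.286. Within the first slide row, where sham replicate 4 was the only sham array, the difference was -0.58. Within the second, where TULP replicate 4 was the only TULP array, it was -0.05. With both miR-205 probes kept on every array the difference over all 8 arrays was 0.10, an opposite sign, with an exact permutation p of 0.686.

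Against single family members the ratio went in both directions. miR-205 relative to miR-429 differed by -0.54 with an exact permutation p of 0.0571, and relative to miR-200c-3p by 0.67 with an exact permutation p of 0.114. The total signal of miR-200c-3p was 24.9, 27.96, 25.5 and 25.0 in the sham arrays and 21.4, 5.998, 5.38 and 4.20 in the TULP arrays. All TULP arrays lay below all sham arrays on that unnormalized scale, as they did for the summed signal of all detected miRNAs, with TULP replicate 1 close to sham, as it was for miR-205. None of the 5 single ratios reached 0.05, so no member of the family was shown to change apart from miR-205.

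Luminal epithelial miRNAs were detected on fewer arrays than the miR-200 family. miR-375-3p, a secretory epithelial miRNA, was detected on all 4 sham arrays and 1 TULP array and differed by -2.03, with an interval from -3.68 to -0.38 and an adjusted p of 0.0675 (limma). miR-183-5p was detected on 4 sham and 2 TULP arrays and differed by -0.74 with an adjusted p of 0.446 (limma). Of their partners in the list, miR-96-5p was detected on 1 sham array and miR-182 on 0 arrays. Of the list 0 of the 2 tested passed, beside 30.5% of all tested. In bulk tissue fewer cells of a type and less RNA per cell cannot be told apart.

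**Figure D5:**
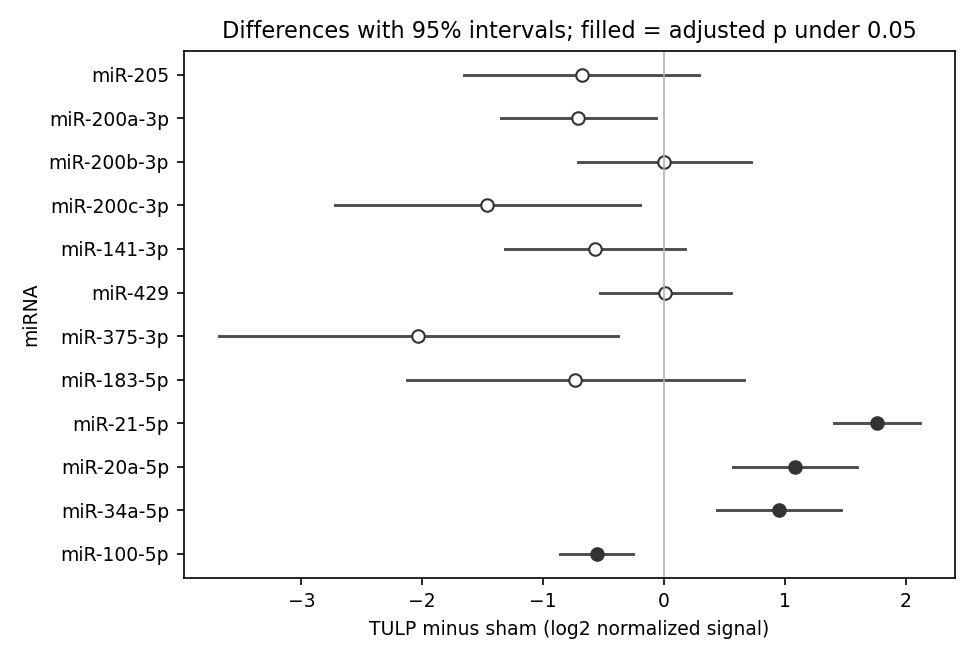
Difference between TULP and sham on the log2 normalized scale (x axis, bars 95% intervals) for miR-205, the miR-200 family, the luminal miRNAs tested and the 4 largest differences among those skin wound miRNAs that passed an adjusted p of 0.05, filled where the adjusted p was under 0.05. The epithelial miRNAs lie at or below 0 with wide intervals and open points, while miR-21-5p, miR-20a-5p and miR-34a-5p lie above 0.

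Skin wound and re-epithelialization miRNAs gave a mixed picture. Of 18 in the list 14 were tested, 3 rose, 2 fell and 9 did not pass, with a median difference of 0.09. miR-21-5p, which is raised in many wounds, rose by 1.76 with an adjusted p of 7.85e-04 (limma), and on all 4 TULP arrays it held the highest rank, to which quantile normalization gives 1 shared value of 11.48, so that this value is a ceiling set by rank. miR-20a-5p, of the proliferation-linked miR-17-92 cluster, rose by 1.08, and miR-34a-5p, a p53 target, by 0.95. miR-100-5p and miR-99a-5p, known to restrain the mTOR pathway, fell by 0.56 and by 0.27. Those 5 all had groups that did not overlap, as 44 of the 151 tested had (29.1%). The share that passed, 5 of 14, stood beside 30.5% of all tested.

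Some markers of other cells differed between the groups, and others did not pass the test. Of the 5 leukocyte miRNAs 2 of 4 tested rose, miR-223-3p by 2.10 and miR-142-3p by 2.01, beside 13.9% higher among all tested. The other 2 did not pass, miR-150-5p with a difference of -0.59, groups that did not overlap and an adjusted p of 0.0737, and miR-155-5p with 0.89 and an adjusted p of 0.236 (limma). miR-142-3p was detected on 2 sham and 4 TULP arrays. The size of its difference therefore depends on the floor given to the undetected sham arrays. The list's summed signal was 35.8 to 68.8 in sham and 63.1 to 103.2 in TULP, with miR-142-5p at 0 detections. miR-155-5p stood in this list and in the skin wound list. Of the 5 striated muscle miRNAs 3 of 4 tested fell, among them miR-133a-3p by 0.96, beside 16.6% lower among all tested, and miR-206-3p differed by 0.25 with an adjusted p of 0.795 (limma). The summed signal of that list before normalization was 4710 to 9924 in sham and 2152 to 3651 in TULP, with miR-499-5p at 0 detections. Of the 4 erythroid miRNAs 1 of 2 tested fell, miR-486 by 0.79 with an adjusted p of 0.0498 (limma), beside 16.6% lower among all tested. miR-451-5p differed by -0.66 with an adjusted p of 0.597 (limma), and miR-144-3p and miR-144-5p had 0 detections. Of the 2 smooth muscle miRNAs 0 passed, beside 30.5% of all tested. The part of these cells in the values of miR-205 and miR-31a-5p was not tested.

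The 3 miRNAs most like miR-205 over the 8 arrays, by Pearson r of the log2 normalized level among the 134 tested miRNAs at the floor on at most 2 arrays, were miR-183-5p, miR-26a-5p and miR-652-3p. miR-183-5p had r = 0.985, with 0.944 within sham and 0.993 within TULP, where it was at the floor on TULP replicates 3 and 4. miR-26a-5p had r = 0.903, with 0.472 within sham and 0.982 within TULP. miR-652-3p had r = 0.892, with 0.651 within sham and 0.929 within TULP. The 8 arrays share a slide, a scan and the normalization, and the values are a description. No other member of the group was detected often enough for such a ranking.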

How the data were processed

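Total RNA of 8 samples was hybridized with 1 dye to a rat miRNA array, 1 array per sample, and read with Agilent Feature Extraction 10.7.1.1 per the submitters' processing notes. The deposited scanner files hold intensity, background subtracted and not normalized between arrays, as a total and an error for each probe, and a detection call for each miRNA. The authors also deposited log2 values after quantile normalization, used as an alternative. In that table some undetected miRNAs stood above its lowest value of -3.32, such as miR-203a-3p on TULP replicate 1 at 1.43. All 8 arrays lay on 1 slide in 2 rows and came from 1 scan.

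The signal of a miRNA was rebuilt as the sum of its probe totals above 3 times their error, else 0.1. It was quantile normalized over 758 rat miRNAs, raised to a floor of 1.94 and converted to log2. The 151 miRNAs detected on at least 4 arrays entered a linear model in limma 3.58.1 (R 4.3.3) with moderated variances and Benjamini-Hochberg adjustment. miRNAs were called at an adjusted p under 0.05 and a change over 2-fold. The fit was tested on simulated data. Ratios within an array were compared by a two-sided exact permutation test over 70 labellings.

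Named were the members, the 3 miRNAs most like a member that could be ranked, and from each list the miR-200 family and up to 4 miRNAs past the adjusted p. miR-99a-5p, miR-31b, the luminal miRNAs and the list members that did not pass or were not detected were named beyond that rule after their values were seen. Members and lists were chosen with earlier results of these data known. Sequences and coordinates are from RefSeq (GRCr8), where 685 of 758 miRNA names matched. The probe positions in the files use another build and were not used. Alternatives covered the signal, background correction, scaling, filter, floor, slide row, replicate block and each array left out.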

Additional observations from a re-analysis of the deposited data

Results flagged for a closer look

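In groups of 4 arrays, a value was singled out where its gap to the nearest other array took up most of the group's range. Of 43 groups of values checked, 4 were singled out, where chance alone gives about 2.15. On TULP replicate 1, miR-200a-3p stood at 6.42 on the log2 normalized scale, above 5.35 to 5.46 on the other TULP arrays, and miR-200b-3p at 9.29, above 8.01 to 8.08. miR-20a-5p stood at 4.90 there, below 5.61 to 5.68. This is the array on which miR-205 was also highest, at 4.82, and without it miR-205 met the call rule. The summed probe totals of the undetected miR-203b-5p were -0.12 on sham replicate 2, above -1.07 to -0.92 on the other sham arrays.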

How the results depend on the processing

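The count of 14 called miRNAs became 1 with normexp, 34 without normalization, 53 with the labelling spike-ins, 8 where detection on all 8 arrays was asked, and 4 and 0 within the first and second slide row. The normexp offset of 50 compresses the log2 scale, so a change over 2-fold is harder to reach there and that count is not comparable. The count of called miRNAs ran from 9 to 21 with 1 array left out, the lowest without TULP replicate 3. miR-205 passed the call rule with the labelling spike-ins (-1.37) and ran from -1.04 without TULP replicate 1, where it passed, to -0.41 without TULP replicate 3. With the replicate number as a block its difference was -0.68 with an adjusted p of 0.346 (limma), and 11 miRNAs were called. Same-numbered arrays deviated together with r from -0.10 to 0.27, over 0.1 in 2 of 4 pairs, so the numbers were not taken to pair the samples.

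The surplus of TULP over sham arrays with detection was 1 for miR-203a-3p and for miR-31a-5p. It became 2 for each above 2 times the error and 0 above 4 times, and ran from 0 to 1 with 1 array left out. For miR-203b-3p it was 0 throughout. The limma difference of miR-31a-5p over all miRNAs lost its call without normalization (0.27), with the labelling spike-ins (0.0385), within the first row (0.067) and the second row (0.10), with the rebuilt totals of miRNAs detected at least once (0.24), and by the methods' t test on the deposited table (0.98). It kept it with the row as a block (0.08, adjusted p 0.0443) with the replicate block (0.08, adjusted p 0.0151) and with the log2 of probe totals plus 10 (0.44 without normalization, 0.43 with quantile), and ran from 0.08 to 0.10 with 1 array left out. The ratio of miR-205 to the miR-200 family was -0.58 within the first row and -0.50 with the stored totals, ran from -0.25 to 0.10 with 1 array left out, and by swaps within replicate numbers gave an exact permutation p of 0.875. No ratio to the family was run for miR-203a-3p or miR-31a-5p, each detected on 1 array, and the remaining settings gave them no value. The cause of these changes was not tested. Signals near 3 times the error limit all statements on miR-203 and miR-31.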
